A study of Mus musculus with 6 samples.

Results

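Neurotrophins are secreted survival factors of neurons. They were followed here through 8 genes, chosen by symbol from the 55471 genes that the authors' deposited table lists: the ligands Bdnf and Ntf3, the receptors Ntrk2, Ntrk3, Ngfr and Sort1, and Cntf and Gfra1 of 2 other families of neuronal survival factors. All 8 were found, each once, and 7 of them were among the 18603 genes to which the authors gave an adjusted p; Cntf was not, since its mean count is too low. RNA came from the hippocampus of wild-type mice, 24 hours after cerebral ischemia followed by reperfusion, in 3 samples given saline and 3 given Visudyne, a preparation of the photosensitizer verteporfin with which the series ablates lymphatic vessels of the meninges. Both groups carry the ischemia, so no comparison with an uninjured brain is made. The labels give no age, sex, strain or ischemia method and do not say whether each sample is 1 animal, so the p-values may reflect technical rather than animal-to-animal spread.

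Neurotrophins are made as precursors, proneurotrophins, that proteases cut to the mature factor. Mature BDNF acts through the receptor tyrosine kinase TrkB (Ntrk2) and NT-3 mainly through TrkC (Ntrk3), which promote survival, growth and synaptic plasticity, while the precursors bind p75 (Ngfr) together with sortilin (Sort1) and can promote cell death. In the hippocampus Bdnf is made by excitatory neurons, above all in response to synaptic activity, and dentate granule cells carry the protein along their mossy fibers.

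Activity acts on Bdnf through several alternative promoters, and the counts used here add up the transcripts of all of them. RefSeq lists 7 starts for Bdnf on build GRCm38.p6, and promoters were listed for 6 of the 8 genes, 13 promoters in all. A single one of the 13, at the third Bdnf start, holds the letters TCACGTCA on either strand within the 250 bases before the start, a match to the calcium and cAMP response element known from the activity-dependent Bdnf promoter. It begins 38 bases before the start, and these letters occur in 0.35% of 32851 mouse promoters. The palindrome TGACGTCA, present in 1.55% of all promoters, is in none of the 13, and CACGTG, present in 6.02%, is in 1, an Ntf3 promoter. The half-site TGACG, present in 17.8%, lies within the reverse complement of TCACGTCA and so within the match shown. The Ngfr promoter, shown because Ngfr had the smallest p of the 8 genes, holds none of the 3 and is 70.4% G and C. Both sequences run 5′ to 3′ on the gene's strand, and capitals mark the motif.
Bdnf start 3, chr2:109692186-109692435, plus strand: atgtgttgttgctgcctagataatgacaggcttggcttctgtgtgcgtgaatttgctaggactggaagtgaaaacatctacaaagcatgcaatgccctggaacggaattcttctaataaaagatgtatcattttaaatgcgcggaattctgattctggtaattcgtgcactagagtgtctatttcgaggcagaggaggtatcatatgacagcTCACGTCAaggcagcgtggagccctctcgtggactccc
Ngfr, chr11:95587699-95587948, minus strand: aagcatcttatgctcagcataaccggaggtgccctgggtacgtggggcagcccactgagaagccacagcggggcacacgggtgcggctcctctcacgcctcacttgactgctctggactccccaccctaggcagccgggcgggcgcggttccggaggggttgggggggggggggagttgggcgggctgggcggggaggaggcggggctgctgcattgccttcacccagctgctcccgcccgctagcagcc

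In the authors' deposited table none of the 8 genes reached an adjusted p under 0.05, and 0.328% of the tested genes did (61 genes). At an unadjusted p under 0.05 there were 2 of the 7 tested members, Ngfr with a positive and Bdnf with a negative sign, beside 6.81% of all tested genes (1267 genes; 3.92% positive and 2.89% negative). With 7 genes this count is too small to be read as a property of the family. The table does not state which treatment is the numerator, so each direction is named only as positive or negative. Deposited fold changes are shrunken toward 0, by so much that all 8 lie within 0.01 of 0 on the log2 scale, and the log2 fold changes below are unshrunken values worked back from the deposited columns. Over the 7 tested members the median was -0.05, beside 0.003 over the 18445 tested genes for which a value could be worked back.

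**Figure D1:**
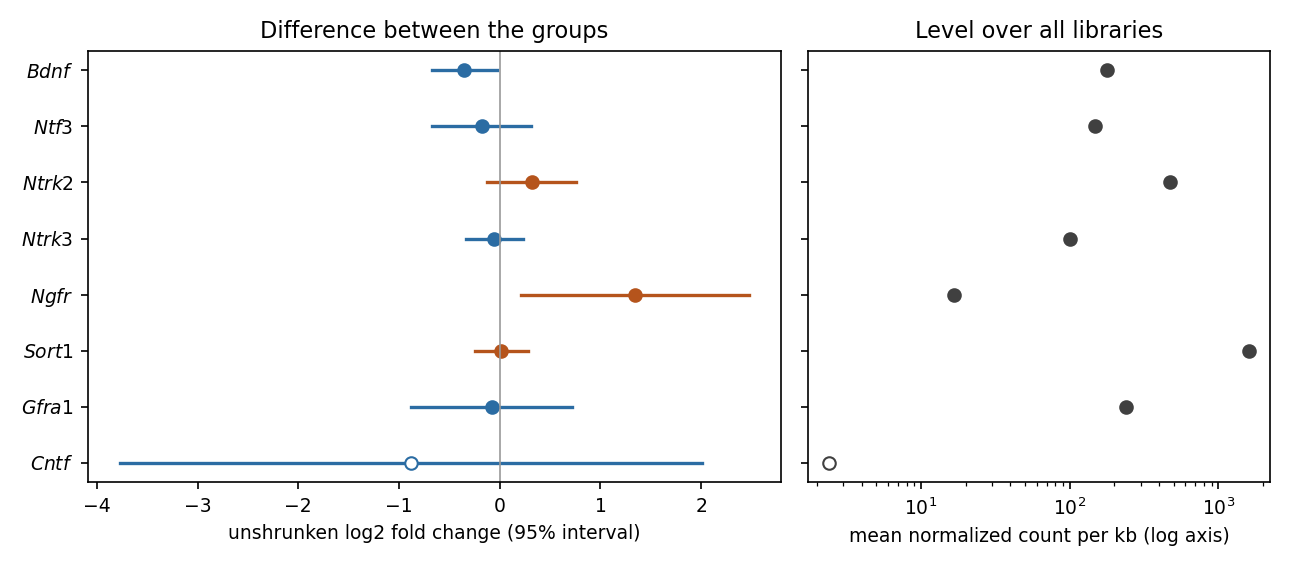
Left, the unshrunken log2 fold change of each gene between the Saline and Visudyne groups (points) with its 95% interval (lines); right, the mean normalized count per kb of exonic sequence over all libraries, on a log axis. Orange marks positive and blue negative values, and the open point is Cntf, which has no adjusted p. Only the intervals of Bdnf and Ngfr leave out 0, and neither gene passed the adjusted threshold.

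Levels between genes can be compared only per length, and are given as the mean normalized count per kb of exonic sequence in the GENCODE M21 annotation, which may not be the one the authors counted on. On this scale Sort1 was the highest with 1600.05, followed by Ntrk2 with 475, Gfra1 with 239, Bdnf with 177, Ntf3 with 147 and Ntrk3 with 101. Ngfr, at 16.7, and Cntf, at 2.41, lay far below the rest. These are means over all libraries of both groups; with no value per library for the upper 6 genes, whether neighbours in this order differ beyond their spread was not tested.

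Bdnf, the ligand of TrkB, had a mean of 1103 normalized counts and a log2 fold change of -0.35 ± 0.17 (SE), with a 95% interval from -0.68 to -0.02. This is a ratio of 0.785, with an interval from 0.626 to 0.984. In the authors' deposited table its p is 0.0356 and its adjusted p 0.655, and 5.42% of tested genes have a smaller p. Dividing every z value by 1.088, the SD of z over all tested genes, brought its unadjusted p to 0.0533. An antisense gene, Gm45346, overlaps Bdnf in GENCODE M21, and although the libraries were stranded, the sources used here do not give the strand setting of the counting.

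Ntf3, which encodes NT-3 and in the hippocampus is best known from dentate granule cells, had a mean of 252 normalized counts and a log2 fold change of -0.18 ± 0.25 (SE). Its interval, from -0.67 to 0.31, includes both no difference and a difference of the size seen in Bdnf. Its adjusted p in the authors' deposited table is 0.971.

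Among the Trk receptors, Ntrk2 was positive and Ntrk3 lay close to 0. Ntrk2, which is expressed by neurons as the kinase form of TrkB and by astrocytes mainly as a truncated form without kinase, had a mean of 9162 normalized counts, above 98.1% of tested genes. Its log2 fold change was 0.32 ± 0.22 (SE), with an interval from -0.12 to 0.76 and an adjusted p, in the authors' deposited table, of 0.885. Counts per gene add both forms together. Ntrk3, the NT-3 receptor, had a mean of 3045 normalized counts and a log2 fold change of -0.05 ± 0.14 (SE). Its interval, from -0.34 to 0.23, corresponds to ratios between 0.793 and 1.17.

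Ngfr encodes p75, the receptor that binds all neurotrophins and their precursors, and it had the largest value of the 8 genes. Its mean was 57.7 normalized counts and its log2 fold change 1.35 ± 0.58 (SE), with an interval from 0.22 to 2.48. In the authors' deposited table its p is 0.0196 and its adjusted p 0.536.

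For a gene with a mean this low the deposited mean can be broken down into whole reads per library, because each read adds a fixed step that depends on the library's size factor. The 6 steps correspond to size factors between 0.584 and 1.517. The reads of a gene seen once, in 1 library, carry that library's step and the sign of its side of the comparison, which put 3 libraries on each side. Which side is Visudyne, and which library is which sample, was not tied to the labels, and the library numbers used here have no meaning of their own. On the positive side, libraries 1, 2 and 3 held 71, 171 and 14 reads of Ngfr, or 59.3, 162 and 24.0 reads after normalization. On the negative side they held 47, 56 and 18 reads, or 31.0, 45.8 and 23.9 after normalization.

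Ngfr was thus high in 1 library, the second of the positive side, and the other 5 libraries lay between 23.9 and 59.3, with the sides overlapping. The ratio of the side means was 2.44 with all libraries and 1.24 without that library, on the log2 scale 1.29 and 0.31. Leaving out any of the other 5 gave log2 ratios between 1.09 and 1.72. The same library held the highest value in 28.5% of the 2929 tested genes with a mean up to 20, against 9.0% to 17.9% for the other 5. A second count took the tested genes listed for this family or as cell type markers that could be broken down in the same way. That set includes Ngfr and reaches means up to 60, unlike the set above, so the counts are not comparable. In that set the same library was the highest in 10 of 16. Lum, a proteoglycan gene of meningeal fibroblasts, was one of them, with 96.7 normalized reads there and 29.2 to 57.4 in the other libraries. Nxph4, a marker of cortical layer 6b, was not, with 50.2 there and 104.4 and 82.2 in the other libraries of that side.

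**Figure D2:**
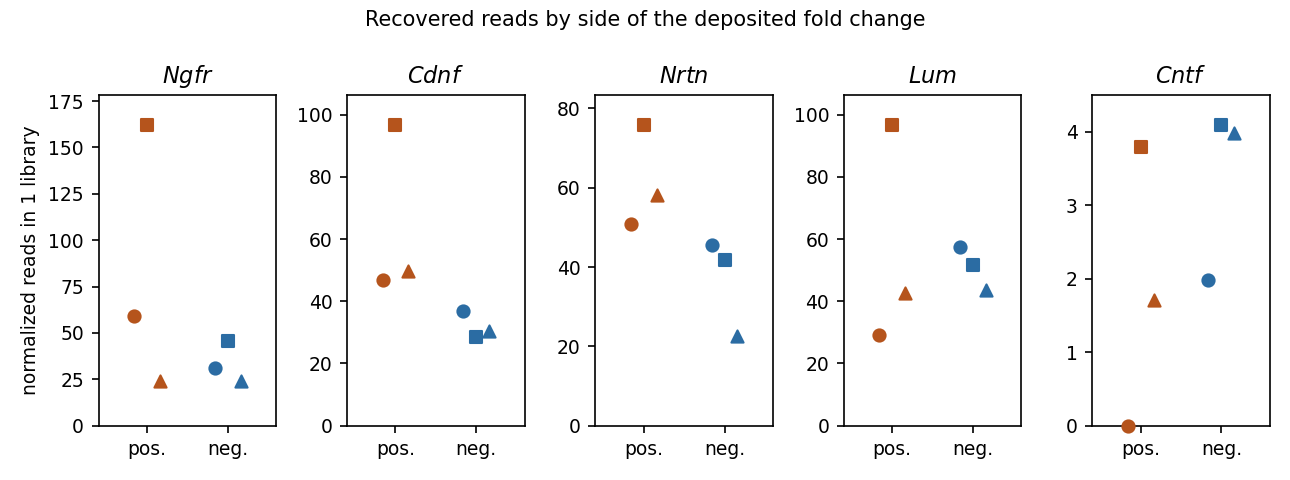
Normalized reads in each library for 5 genes, recovered from the deposited means, with the 3 libraries on the positive side of the deposited fold change in orange (pos.) and the 3 on the negative side in blue (neg.). Circles, squares and triangles are libraries 1, 2 and 3 of a side, and each panel has its own axis from 0. The orange square is the highest point in every panel but that of Cntf, and in the panel of Ngfr it stands at 162, with the next highest library at 59.3.

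Markers of meningeal fibroblasts were positive in all 8 tested genes (range of means 53.6 to 931.8 normalized counts), 4 of them past the adjusted threshold, with a median log2 fold change of 1.09. Cortical layer 6b markers were positive in 5 of 5, with 3 past the threshold and a median of 1.36, and markers of mural cells (pericytes and smooth muscle) in 3 of 5, with none past it. Choroid plexus markers were positive in 6 of 6, with none under an unadjusted p of 0.05 and a median of 1.56, the largest of the marker lists, and interneuron markers in 6 of 7, with 2 under an unadjusted p of 0.05, none past the adjusted threshold and a median of 0.31. None of these markers was at 0. Summed levels per group were not used here, and the part of these cells in the Ngfr value was not tested. In bulk tissue, fewer cells of a type and less RNA per cell cannot be told apart.

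Sort1, the sorting receptor that serves as the partner of p75 for proneurotrophins and also directs BDNF inside the cell, was the most abundant member, with a mean of 12111 normalized counts, above 98.8% of tested genes. Its log2 fold change was 0.02 ± 0.13 (SE), and its interval, from -0.25 to 0.28, corresponds to ratios between 0.843 and 1.21. This is the narrowest interval of the 8 genes. Its adjusted p in the authors' deposited table is 0.997.

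Gfra1, the GPI-anchored receptor that binds GDNF and presents it to Ret, had a mean of 1309.5 normalized counts and a log2 fold change of -0.08 ± 0.41 (SE). Ratios from 0.544 to 1.65 lie within the interval, from -0.88 to 0.72. Its adjusted p in the authors' deposited table is 0.997. For Gfra1, where the deposited value lies closest to 0 among the tested members, a back-calculation from the deposited error in place of the p gave -0.02. The width of the interval given here depends on that choice as well.

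Cntf, a cytokine that in the brain is made mainly by astrocytes and acts on neurons and glia, was barely counted. Its mean of 2.59 normalized counts stands for 16 reads in all. On the positive side the 3 libraries held 0, 4 and 1 reads and on the negative side 3, 5 and 3, so the sides overlap. With so few reads the interval of its log2 fold change runs from -3.77 to 2.00, and a difference was not detectable at this depth. In GENCODE M21 the whole of Cntf lies within the Zfp91 gene on the same strand, so its reads may have been left out or assigned to Zfp91, which has a mean of 3489 normalized counts.

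The remaining genes of the pathway were taken from 9 lists with 122 genes, of which 114 were tested. No list gene passed the adjusted threshold, beside the 0.328% of all tested genes, and 13 (11.4%) had an unadjusted p under 0.05, 9 positive and 4 negative. Their median log2 fold change was -0.02. At the unadjusted threshold, 6.81% of all tested genes passed.

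Other genes of the neurotrophin family showed no difference past either threshold. Ntf5, which encodes NT-4/5, another ligand of TrkB, had a log2 fold change of -0.23 ± 0.79 (SE) at a mean of 8.21 normalized counts. The sortilin relatives had values of -0.20 ± 0.16 for Sorcs3, 0.19 ± 0.21 for Sorcs1, 0.09 ± 0.21 for Sorcs2 and -0.13 ± 0.16 for Sorl1.

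Enzymes and inhibitors that act on proneurotrophins lay mostly on the positive side. Of 10 tested genes 8 were positive, 3 of them with an unadjusted p under 0.05 and none past the adjusted threshold, and the median log2 fold change was 0.21. Serpini1, neuroserpin, the inhibitor of the tissue plasminogen activator that starts extracellular cutting of proBDNF by plasmin, had 0.59 ± 0.18 (SE), and its adjusted p, 0.129 in the authors' deposited table, is the smallest in the 9 lists. Pcsk1, a convertase of the regulated secretory pathway that cuts prohormones, had 0.48 ± 0.24.

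Genes that act downstream of the receptors were divided in sign. Of 22 adaptors and kinases of Trk signalling, 12 were positive and 10 negative, with a median log2 fold change of 0.06. The adaptor Sh2b2 had 0.68 ± 0.28 (SE), the phosphoinositide 3-kinase subunit Pik3r1 0.33 ± 0.14 and the docking protein Gab1 -0.43 ± 0.19, with adjusted p between 0.521 and 0.577 in the authors' deposited table. Of 16 partners and effectors of p75, 7 were positive, and the median was -0.05. Mapk8, which encodes the kinase JNK1, had 0.35 ± 0.13, and Mag, a myelin protein that signals through the Nogo receptor and p75, -0.32 ± 0.20. Mag is also a marker of oligodendrocytes, whose markers were negative in 7 of 7 tested genes, with Ermn, a cytoskeletal protein of these cells, past the adjusted threshold and a median of -0.39, and the part of these cells in its value was not tested.

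Of 15 tested genes known to be induced by synaptic activity and BDNF, 12 were negative and 3 (Dusp1, Scg2 and Vgf) positive. The median over the 15 log2 fold changes was -0.36, beside 0.003 over the tested genes with a back-calculated value. Of all tested genes 49.5% were negative. A single one (6.67%, beside 6.81% of all tested genes), Dusp6, a phosphatase of ERK kinases, had an unadjusted p under 0.05, with -0.36 ± 0.18 (SE), and none passed the adjusted threshold. The transcription factor gene Junb had -0.51 ± 0.26 and an unadjusted p of 0.0501 in the authors' deposited table. Regulators that bind or act on Bdnf promoters were positive in 5 of 12 genes, with a median of -0.04. Among them Mef2c, an activity-dependent transcription factor, had 0.72 ± 0.23 and in the authors' deposited table an adjusted p of 0.165.

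Bdnf and Ntf3 can be read beside the markers of the neurons that express them. Dentate granule cell markers were negative in 4 of 6 tested genes, 2 of them, Lct and Prox1, with an unadjusted p under 0.05 and none past the adjusted threshold. Prox1, the transcription factor of granule cell identity, had a log2 fold change of -0.29 ± 0.13 (SE) and Lct -0.78 ± 0.33. Markers of CA3 and CA2 were negative in 5 of 5 genes, with a median of -0.21 and none under an unadjusted p of 0.05, and those of CA1 positive in 3 of 4. All these markers were well counted, with means between 90.9 and 4065 normalized counts, so the markers of the labelled tissue were all present. The part of these cells in the Bdnf value was not tested.

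**Figure D3:**
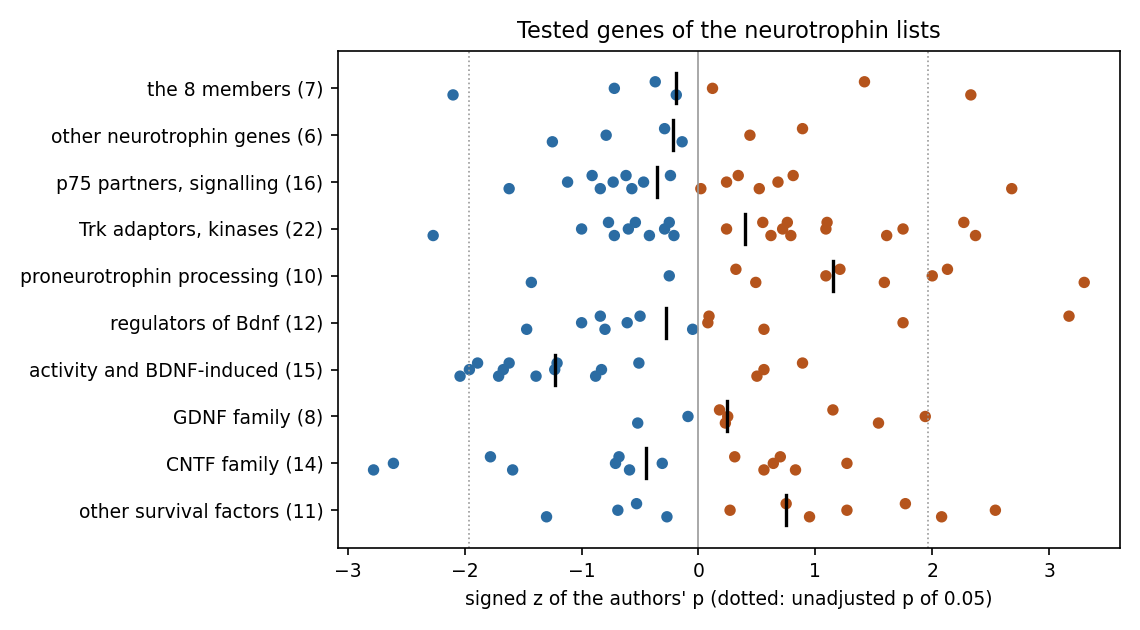
Signed z of the authors' p for every tested gene of the 8 members and of the 9 pathway lists, with the number tested in brackets; points in orange are positive and in blue negative, black bars are list medians, and dotted lines mark an unadjusted p of 0.05. The activity and BDNF-induced genes lie mostly to the left and the proneurotrophin processing genes mostly to the right, with no point past the adjusted threshold.

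Receptors and ligands of the GDNF family had no gene under an unadjusted p of 0.05, with 6 of 8 tested genes positive and a median log2 fold change of 0.08. Nrtn, neurturin, the ligand of GFRa2, had 0.73 ± 0.38 (SE). Its normalized reads were 51.0, 75.8 and 58.2 on the positive side and 45.5, 41.7 and 22.6 on the negative side. The sides do not overlap, as is the case for 11.9% of the 2929 tested genes with a mean up to 20; the share among genes as abundant as Nrtn and Cdnf was not computed. Its receptor Gfra2 had 0.22 ± 0.19, Gfra4 -0.09 ± 0.17, and the signalling receptor Ret 0.10 ± 0.41. Artn, artemin, had -0.05 ± 0.57. Gdnf itself was at 15 reads in all and Pspn is listed at 0.

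The CNTF family was divided, 6 of 14 tested genes positive and a median log2 fold change of -0.11. Its receptor subunits stayed within 0.15 of 0, with 0.15 ± 0.18 (SE) for Cntfr, 0.11 ± 0.17 for Lifr and -0.10 ± 0.34 for Il6st. Socs3, the feedback inhibitor that this receptor induces through Stat3, had -0.89 ± 0.34 and in the authors' deposited table an adjusted p of 0.411. Stat3 had -0.12 ± 0.20. The related ligands Lif, Clcf1, Ctf1 and Osm had low means, between 8.24 and 35.6 normalized counts, and values between 0.12 and 0.63, and their receptor subunit Osmr, for oncostatin M, had -0.56 ± 0.31. Microglia markers were negative in 7 of 7 genes, with 1 past the adjusted threshold. Markers of astrocytes, the cells that make Cntf, were negative in 3 of 7, with 1 positive gene, Fgfr3, past the adjusted threshold. Of the negative ones, Aqp4 (-0.53 ± 0.23) and Gfap (-0.48 ± 0.24) had an unadjusted p under 0.05 in the authors' deposited table. The part of microglia and astrocytes in the values of the CNTF family was not tested.

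Among other survival factors 7 of 11 tested genes were positive, 2 of them with an unadjusted p under 0.05, and the median log2 fold change was 0.28. Cdnf, a neurotrophic factor of the endoplasmic reticulum, had 1.03 ± 0.40 (SE) and in the authors' deposited table an adjusted p of 0.443. Its normalized reads were 46.8, 96.7 and 49.6 on the positive side, against 36.9, 28.6 and 30.5 on the other, so the sides do not overlap (11.9% of genes with a mean up to 20), and the ratio of side means was 2.01 with all libraries and 1.51 without the second positive-side library. Nrg1, neuregulin 1, had 0.54 ± 0.26.

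The recovered reads also allow a check of the back-calculated fold changes, since they do not pass through the shrinkage. Over the 777 genes with a mean up to 20 and a z above 1 in size, both values had the same sign in all 777, and the back-calculated value differed from the log2 ratio of recovered reads by 0.036 in the median and by 0.11 at the 95th percentile. Pearson's r across these genes was 0.999; genes are not independent replicates, and no p is given. For Ngfr the back-calculated 1.35 stood beside a recovered 1.29. Genes with higher means, among them Bdnf and Ntrk2, could not be checked in this way. Genes with a z of smaller size, as had Ntf3, Ntrk3, Sort1, Gfra1 and Cntf, were left out of it. No SE or interval was checked. Some well counted genes had a large SE, such as 1.91 for the CA1 marker Fibcd1 at a mean of 4065 normalized counts. The reason was not tested.

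**Figure D4:**
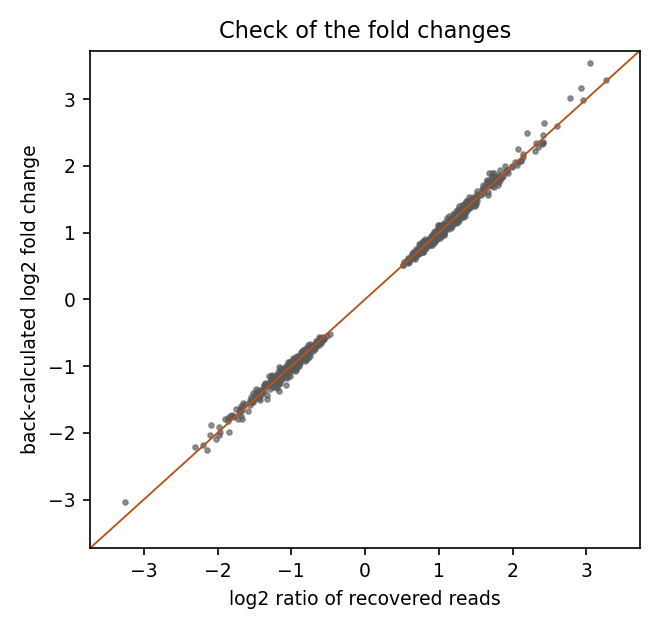
Back-calculated log2 fold change against the log2 ratio of mean normalized reads recovered for the positive and negative sides, each point 1 of 777 genes with a mean up to 20 and a z above 1 in size; the line marks equal values. Points follow the line, with a median absolute difference of 0.036.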

How the data were processed

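Stranded mRNA libraries of 3 Saline and 3 Visudyne samples were read as 150 bp pairs, and the authors used fastp 0.20.0 for trimming, HISAT2 2.1.0 for alignment and featureCounts 2.0.1 for counting, per the labels' protocols; the submitters' processing notes name DESeq2 1.28.0. The sources used here do not give the genome build, the annotation or the type of test. The deposited mean is a signal, counts divided by size factors and averaged over libraries by the authors. The deposited fold change and its error are log2 values, and the p-value columns are the authors' own, with no adjusted p below a mean of 5.67. No deposited column holds a single library, so the planned count test gave way to the authors' adjusted p at 0.05, the rule set for that case.

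Each p-value was turned into a normal z that carries the sign of the deposited fold change. Unshrunken values assume that the deposited value is the peak of a normal likelihood times a Cauchy prior of scale 0.0357, read from the errors at the lowest counts. SE and 95% intervals come from that calculation and rest on z as deposited. Whole reads were recovered for means up to 60 as the single combination of 6 steps within 1e-13 of the deposited mean: 23 of 23 listed genes and 2929 of 2929 tested genes with a mean up to 20 had exactly 1 combination. Both calculations were tested on simulated data only for returning the values put in. Whether the assumed likelihood and prior hold for the deposited values was not tested in that way. In a window 10 times wider, wider than the printed digits of the mean, Ngfr, Cdnf and Cntf still had 1, Nrtn and Lum 2 and Nxph4 3. Sides come from the sign of the deposited value of genes with a single read. Read counts carry counting error only, and no test was made on them.

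Named genes are the 8 members, the 2 smallest p of each list and the tested ligands and receptors of the families; some genes that this rule selects are not reported here, and Pcsk1, Gab1, Stat3, Lum, Nxph4, Ermn, Dusp1, Scg2, Vgf, Lct, Prox1 and Fgfr3 were named after their values were seen. The members and lists were chosen with earlier results of these data known. Promoters are RefSeq's on GRCm38.p6. Computations used Python 3.11.15 with pandas 2.3.3, numpy 2.4.6, scipy 1.17.1 and, for figures, matplotlib 3.10.9.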

Additional observations from a re-analysis of the deposited data

How the results depend on the processing

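No member and no pathway list gene was called at an adjusted p of 0.1, over all genes with a p or with z divided by its SD, and no member was called when the adjustment ran over genes at 1 CPM or more. The count of members with an unadjusted p under 0.05 was 2 in the authors' deposited table (Ngfr 0.0196, Bdnf 0.0356), and so 0 at an unadjusted p under 0.01. With z divided by its SD it was 1, since Ngfr then had 0.0320 and Bdnf 0.0533. The 13 pathway genes with an unadjusted p under 0.05 were 13 without the filter on low means. The median log2 fold change of the members was -0.05. It was -0.02 from the deposited errors and -0.01 with the prior's scale divided by 2, a scale that the deposited errors contradict. The divided scale gave 0.34 for Ngfr and -0.09 for Bdnf, so the size of these values rests on the scale. For Ngfr the size could be checked against recovered reads and for Bdnf it could not. With the scale multiplied by 2, also contradicted by the errors, the calculation only returned the deposited shrunken values. These were 0.0026 for Ngfr and -0.0083 for Bdnf, with a median of -0.0003. That setting therefore does not show how the values depend on a larger scale. No sign of a member changed in these settings, since each value keeps the sign of the deposited one by construction. Leaving out each library in turn, chosen after seeing the data, gave log2 ratios of recovered reads from 0.31 to 1.72 for Ngfr, 0.59 to 1.19 for Cdnf and 0.50 to 0.94 for Nrtn. Settings that need counts of every gene per library (another normalization, another filter, refits without a library) were not run. No paired analysis was possible because the labels share no replicate numbers between the groups (those used here only name samples in accession order) and the deposited columns name no library. Reads of Cntf and Gdnf are too few to show any but very large differences.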
